A study of Mus musculus with 24 samples.

Results

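The alpha-defensin gene family was taken as every gene whose name starts with Defa and whose count reached 10 in 3 or more of the 24 libraries. This rule kept 39 of the 40 Defa genes listed, among 34471 genes with a count. The gene left out, Defa-ps11, had at most 5 counts and was at 0 in 23 libraries. Of the 39 members, 28 are annotated as protein coding and 11 as pseudogenes.

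The study compared distal jejunum from male and female C57BL/6 mice that were wild type or Ptk6-/-. The Ptk6-/- mice carry a germline disruption of Ptk6, so every cell of the animal lacks the kinase, not only the gut epithelium. Mice were given 100 mM succinate in their drinking water for 7 days, or regular water as control. The 8 groups of sex, genotype and treatment had 3 mice each, and the age-matched young adults came from different litters. Poly(A) RNA of the whole tissue was sequenced, so a lower level can come from fewer Paneth cells or from less RNA per cell, and these cannot be told apart here.

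Alpha-defensins are small cationic peptides with paired cysteines that kill bacteria by disrupting their membranes. In the mouse small intestine they are made by Paneth cells at the base of the crypts, stored in granules and secreted into the crypt lumen. Each is translated as a precursor whose acidic propiece is removed by the metalloprotease matrilysin, the product of Mmp7, and whose C-terminal end is the active peptide. Mouse neutrophils, unlike those of humans, do not make them. Succinate is sensed by tuft cells through the receptor Sucnr1, and the cytokines that follow, IL-25 and IL-13, reshape the secretory lineages of the epithelium. PTK6 is an intracellular tyrosine kinase of differentiating epithelial cells.

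All 39 members lie in a cluster on chromosome 8, from 21515561 to 22225487 in the deposited table, whose build is named as GRCm39, a span of 709.9 kb. On the plus strand there are 33 members, and 6 are on the minus strand. The members resemble each other closely, and coding sequences of 6 pairs were identical in full, among them Defa20 and Defa32, Defa3 and Defa17, and Defa23 and Defa31. Reads from such copies cannot be assigned to 1 gene with certainty, so levels of single members are uncertain and sums over groups of like sequence are given beside them. The members were joined into groups where their coding sequences, or for pseudogenes their transcripts, differed by less than 15%, a limit chosen after the expression values and sequences had been seen. The Defa24 group held 13 members, the Defa20 group 6, the Defa37 group 6 and the Defa42 group 5, and 9 other pseudogenes remained outside these groups. Identity ran from 86.3% to 100% within the Defa24 group and from 77.5% to 83.7% between the Defa24 and Defa20 groups, and it was at most 62.4% between the Defa24 and Defa42 groups. All 5 members of the Defa42 group lie on the minus strand. The groups are interleaved along the cluster, since only 4 of the 38 pairs of neighbours belong to the same group.

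The ends of the coding sequences show what sets the groups apart. Shown are the last 150 bases of the coding sequence, stop codon included, of the member that names each group and of Defa31, from the GENCODE M21 transcripts. Capitals mark bases that differ from the aligned base of Defa24 or have none opposite.
Defa24: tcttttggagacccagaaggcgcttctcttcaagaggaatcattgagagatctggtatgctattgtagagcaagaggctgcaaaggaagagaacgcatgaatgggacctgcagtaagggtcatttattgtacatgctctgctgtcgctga
Defa31: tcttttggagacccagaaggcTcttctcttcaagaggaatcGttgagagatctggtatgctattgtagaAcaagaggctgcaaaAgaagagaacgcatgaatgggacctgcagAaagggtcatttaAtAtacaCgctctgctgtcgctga
Defa20: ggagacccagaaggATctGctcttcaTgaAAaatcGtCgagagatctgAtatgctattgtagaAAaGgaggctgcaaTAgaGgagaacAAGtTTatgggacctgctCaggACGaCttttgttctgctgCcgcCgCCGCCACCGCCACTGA
Defa37: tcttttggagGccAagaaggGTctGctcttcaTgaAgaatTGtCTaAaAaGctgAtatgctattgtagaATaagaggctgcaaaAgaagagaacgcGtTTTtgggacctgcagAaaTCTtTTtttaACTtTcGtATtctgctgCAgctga
Defa42: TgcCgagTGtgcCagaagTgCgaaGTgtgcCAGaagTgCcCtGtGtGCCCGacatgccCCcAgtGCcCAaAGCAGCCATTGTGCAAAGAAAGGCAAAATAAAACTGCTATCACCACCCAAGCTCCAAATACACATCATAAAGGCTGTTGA
Defa31, a member of the Defa24 group, differed from Defa24 at 8 of these bases. Capitals numbered 43 for Defa20, 37 for Defa37 and 109 for Defa42, a count that takes in any base with none opposite. The 150 bases encode the C-terminal end of the precursor, where the active peptide lies. Where that peptide starts within them was not marked, so not every difference need lie in it.

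Promoters were available for 16 of the 39 members from RefSeq (GRCm38.p6, from 250 bases before to 50 after the annotated start). Those of Defa31 and Defa20 are shown, 1 from each of the 2 groups that diverged after succinate, as the 250 bases before the start. The Defa31 window is chr8:21191323-21191572 and the Defa20 window is chr8:21509008-21509257, both on the plus strand. Capitals mark TATAAA and the TCF/LEF motif CTTTGAT, which is read here on the opposite strand.
Defa31: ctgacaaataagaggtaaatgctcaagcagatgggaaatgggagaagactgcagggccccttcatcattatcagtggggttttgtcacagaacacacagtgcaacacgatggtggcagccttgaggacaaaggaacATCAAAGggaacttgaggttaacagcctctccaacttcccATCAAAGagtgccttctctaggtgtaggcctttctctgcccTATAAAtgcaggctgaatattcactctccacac
Defa20: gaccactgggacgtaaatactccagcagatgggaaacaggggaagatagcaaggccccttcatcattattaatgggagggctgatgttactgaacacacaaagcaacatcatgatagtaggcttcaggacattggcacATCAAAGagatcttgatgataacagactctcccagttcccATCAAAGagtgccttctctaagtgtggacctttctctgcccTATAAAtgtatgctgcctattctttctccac
Both windows hold TATAAA, with its start 33 bases upstream of the annotated start in Defa31 and 31 bases upstream in Defa20, and both hold 2 TCF/LEF motifs. Other promoters of the Defa24 group differ from that of Defa31. Defa30 has TATAAA starting 61 bases upstream and 1 TCF/LEF motif, and Defa28 has 1 TCF/LEF motif and lacks TATAAA. Defa23 matches Defa31, and Defa24 itself is not among the 16. TATAAA was found in 15 of the 16 promoters, and Defa28 was the exception. It was present in 8.32% of all 32851 promoters searched. A TCF/LEF motif, which Wnt signalling uses (CTTTG followed by AA, AT, TA or TT, on either strand), was found in 13 of 16, against 16.9% of all promoters. Defa38, Defa42 and Defa43 were without one. No promoter of the 16 held the STAT6 motif TTCNNNNGAA, which 6.95% of all promoters hold, or the general STAT motif TTCNNNGAA, which 8.30% hold. Promoters of 1 group can be near copies, at 97.0% to 100% identity within the Defa20 group and 68.0% to 100% within the Defa24 group. The matches among the 16 are therefore not independent of each other. They are letter matches within a short window and were not linked to binding.

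Libraries held 8080321 to 52824743 counts, with a median of 43017700. Ptk6 had 284 to 2405 counts in the 12 wild type libraries and 7 to 61 in the 12 Ptk6-/- libraries. Paneth markers were present throughout, with Lyz1 at no less than 1632 CPM (counts scaled to the size of the library) in any library, and neutrophil markers summed to at most 6.57 CPM. The neutrophil sum was 0.404 to 6.57 CPM in male controls and 4.97 to 6.21 CPM in male wild type succinate libraries. It was at most 0.823 CPM in male Ptk6-/- succinate libraries and at most 1.39 CPM in female libraries. What sets these groups apart was not tested. The libraries labelled male wild type control 1, male Ptk6-/- succinate 1 and female wild type succinate 2 stand apart. In male wild type control 1, 51.2% of counts came from the 18S ribosomal RNA gene Rn18s-rs5. Male Ptk6-/- succinate 1 had the fewest counts, 29.7% of them from the same gene. The library labelled female wild type succinate 2 had 15354 CPM over the heart markers, against 12.7 to 196 CPM in the other 23. It had 74.3 CPM over Y-linked genes, against at most 0.971 CPM in other female libraries and 33.5 to 90.2 CPM in male libraries. It was kept in its labelled group, and whether its label is right was not tested. Lung markers, led by Scgb1a1, with 4 of 4 detected, summed to 9.80 to 15.9 CPM in the female Ptk6-/- controls, 5.16 to 9.04 CPM in the female Ptk6-/- succinate libraries and 14.4 CPM in female wild type succinate 3, against at most 0.342 CPM in the other 17. Ptk6 was at 20.3 CPM in female wild type succinate 3, within the 9.21 to 48.8 CPM of the wild type libraries. The family sums, the calls and the Defa24 group share difference in females are also given with single libraries left out. Other ranges, counts, group means and marker values include all libraries unless said.

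The family took 1.79% to 10.03% of all counts in a library, with a median of 4.03%. The exact 95% binomial interval for male wild type control 1, at 2.51%, ran from 2.50% to 2.52% and covers counting error only, so depth did not limit these shares. On the FPKM scale (fragments scaled to transcript length and library size), which allows comparison between genes, the family made up 18.3% ± 8.24 of the summed expression (SD, n = 24). Of the 50 genes with the highest mean FPKM, 20 were alpha-defensins.

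Defa24 was the most abundant member, at 6595 ± 4578 FPKM (SD, n = 24). It was followed by Defa20 at 5483 ± 2754 FPKM, Defa21 at 5212 ± 2923, Defa32 at 5134 ± 2584 and Defa22 at 5127 ± 2677. Next came Defa17 at 4884 ± 4611 FPKM, Defa3 at 4683 ± 4557, Defa31 at 4645 ± 5366, Defa2 at 4401 ± 2143 and Defa33 at 4091 ± 1970. These 10 members belong to the Defa24 and Defa20 groups only, and neighbours in this order differed by far less than their spread. Together the 10 held 63.8% of the family's FPKM. The SDs of Defa17, Defa3 and Defa31 were close to or above their means, while the SDs of the Defa20 group members were well below theirs. In all, 20 members averaged at least 1000 FPKM, and the lowest, Defa-ps3, averaged 0.44 FPKM.

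Members of the same group varied together over the 24 libraries. The median Pearson correlation of log2 CPM was 0.951 over 66 pairs within the Defa24 group and 0.989 over 15 pairs within the Defa20 group. It was 0.956 between the Defa20 and Defa42 groups, and 0.563 between the Defa24 and Defa20 groups. Libraries, depth and, for close copies, reads are shared by these points, so the values are a description. The Defa20, Defa37 and Defa42 groups thus moved nearly in parallel, and the Defa24 group moved apart from them.

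**Figure D1:**
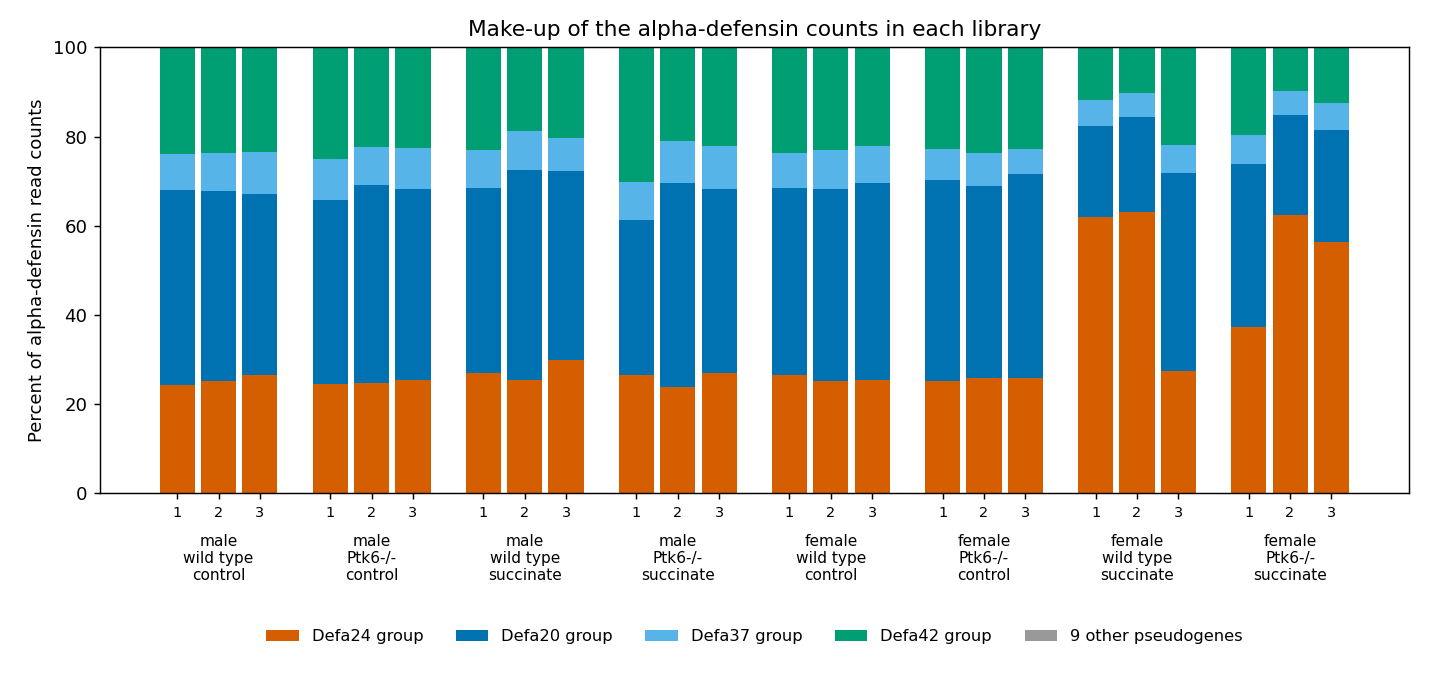
Share of each sequence group in the alpha-defensin counts of each of the 24 libraries, in percent, with libraries numbered by replicate within their group. The Defa24 group takes 24.3% to 26.6% in all 12 controls and up to 63.1% in the succinate-treated females.

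The share of alpha-defensin counts that came from the Defa24 group was nearly constant in control mice. Since it is a ratio of counts within a library, it does not depend on depth or scaling. It was 25.3% ± 1.10 in wild type males, 25.0% ± 0.482 in Ptk6-/- males, 25.8% ± 0.734 in wild type females and 25.6% ± 0.397 in Ptk6-/- females (SD, n = 3 each). All 12 controls fell between 24.3% and 26.6%, across both sexes and both genotypes.

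Succinate was accompanied by a different make-up in females. The Defa24 group held 62.0%, 63.1% and 27.5% of the family in wild type female succinate libraries 1, 2 and 3. It held 37.3%, 62.3% and 56.4% in Ptk6-/- female succinate libraries 1, 2 and 3. All 6 succinate-treated females lay above all 12 controls, but wild type female 3 did so by less than 1 percentage point, so the size of the shift differed greatly between mice. Wild type female 3 is also the only wild type library with lung markers above 0.342 CPM, and the part of these in its make-up was not tested. In succinate-treated males the share was 27.5% ± 2.29 in wild type and 25.8% ± 1.65 in Ptk6-/- mice, with single libraries from 23.9% to 30.0%, overlapping the controls. Wild type males 1 and 3, at 27.1% and 30.0%, and Ptk6-/- male 3, at 26.9%, also lay above all 12 controls. Group means in succinate-treated females were 50.9% ± 20.3 for wild type and 52.0% ± 13.1 for Ptk6-/- mice, so the genotypes differed by far less than their spread. The mean over females was 25.7% in the 6 controls and 51.5% in the 6 succinate-treated mice, a difference of 25.8 percentage points, and leaving out each female library in turn gave 23.5 to 30.6 points. No test was made of this share, because the groups were formed after the values had been seen. Without female wild type succinate 2, the library with heart and Y-linked transcripts, the difference was 23.5 points, and without female wild type succinate 3 it was 30.6 points.

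The Defa20 group was the counterpart, since shares within the family trade off and a larger one lowers the others. It took 40.7% to 45.8% of the family in the 12 controls. In succinate-treated females its share was 20.4%, 21.4% and 44.3% in wild type and 36.6%, 22.6% and 25.0% in Ptk6-/- mice, in replicate order. Thus 5 of the 6 were below every control, and wild type female 3 was within the control range. The Defa42 group went from 21.9% to 24.9% in controls to 9.66% to 21.8% in succinate-treated females, and the Defa37 group from 5.54% to 9.26% to 5.32% to 6.45%. Counts of the Defa24 group divided by those of the Defa20 group were 0.555 to 0.650 in all controls, 0.522 to 0.763 in succinate-treated males and 0.620 to 3.05 in succinate-treated females.

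The pattern was shared across most members of the Defa24, Defa20 and Defa42 groups. Relative to the family sum, 10 of the 13 members of the Defa24 group were above all 12 controls in at least 5 of the 6 succinate-treated females. Of the 26 members of the other groups 0 were, against 0.622% of all 21694 genes tested measured in the same way. For genes outside the family, dividing by the family sum adds its spread between libraries. This percentage and the next are therefore not a like measure for members. In the other direction, 5 of 6 members of the Defa20 group, 4 of 5 of the Defa42 group and 1 of 6 of the Defa37 group were below all controls in at least 5 of 6, against 0.452% of all genes. Because a larger share of the Defa24 group lowers the shares of the others, this count is not a further result. The groups were drawn by sequence, and members of 1 group share reads, so these counts are not independent of each other. As CPM rather than as a share, only Defa-ps6 was above all 12 controls in at least 5 of the 6, against 1.89% of all genes, and 0 members were below, against 1.66%.

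Defa31, which has the same coding sequence as Defa23, showed the shift most clearly among the abundant members. It held 2.76% to 3.68% of the family in controls. In succinate-treated females it held 11.2%, 11.2% and 3.69% in wild type and 5.78%, 11.2% and 8.95% in Ptk6-/- mice. All 6 values lay above the controls, that of wild type female 3 at the very edge of their range. Defa24 itself, the most abundant member of the group, went from 6.42% to 8.48% in controls to 11.8%, 11.8% and 7.06% in wild type and 8.68%, 11.3% and 10.7% in Ptk6-/- succinate-treated females, and the ratio of its female medians, succinate to control, was 1.55. That was the lowest ratio in the group and that of Defa-ps6, 9.66, the highest, among members with a control median above 0. Defa20 moved the other way, from 7.29% to 8.87% in controls to 4.10%, 4.02% and 8.88% in wild type and 6.53%, 4.27% and 4.59% in Ptk6-/- mice.

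**Figure D2:**
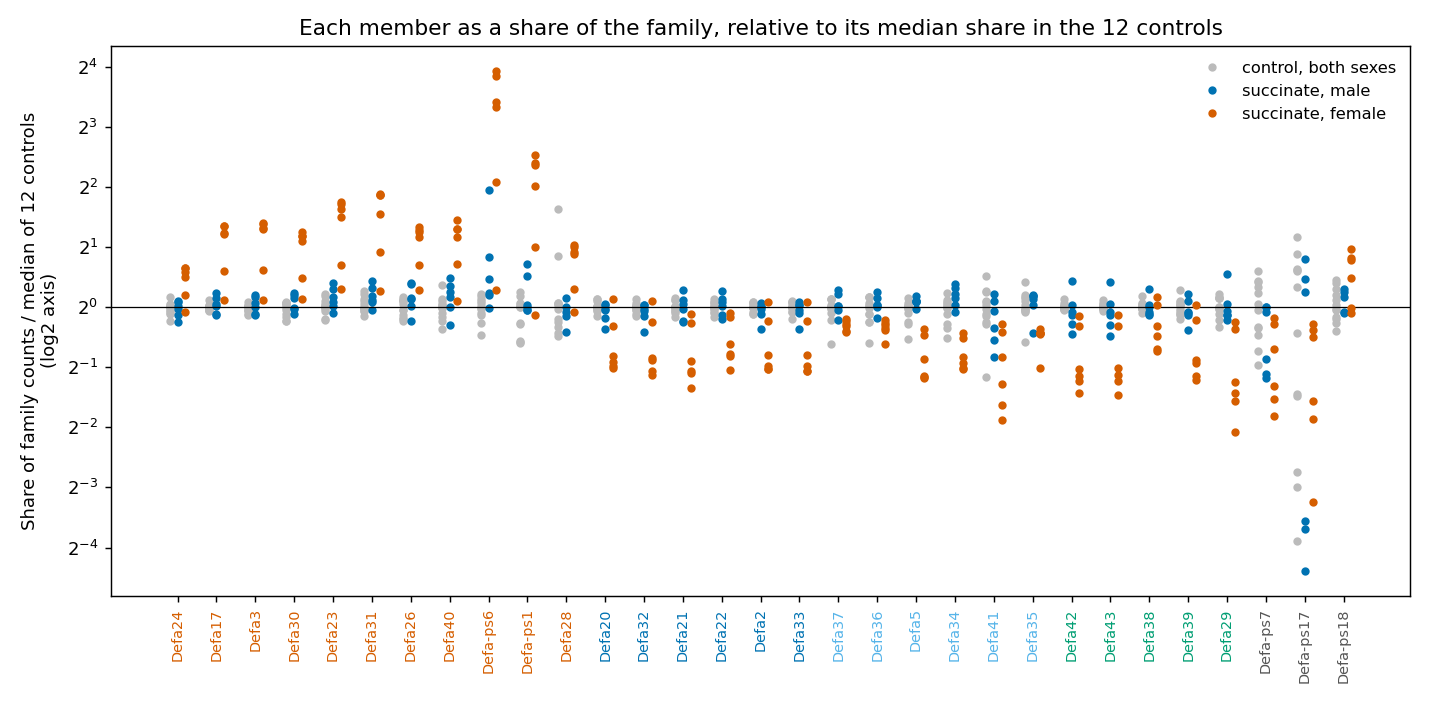
Share of the family counts held by each member, divided by its median share in the 12 controls (log2 axis), for members with a median control share of at least 0.008% and values above 0. Grey points are controls, blue points succinate-treated males and orange points succinate-treated females, and symbols are coloured by sequence group. In the Defa24 group the ratio of female medians runs from 1.55 for Defa24 to 9.66 for Defa-ps6, and most orange points of the Defa20 and Defa42 groups lie below 1.

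The level of the family as a whole varied up to 6.29-fold between libraries, from 16021 to 100853 CPM. The sum was 43252 ± 3165 CPM in male wild type controls and 21191 ± 6781 in male Ptk6-/- controls, 64017 ± 32665 in female wild type controls and 45103 ± 27368 in female Ptk6-/- controls (SD, n = 3 each). After succinate it was 48008 ± 22773 CPM in male wild type, 46036 ± 40203 in male Ptk6-/-, 53772 ± 33707 in female wild type and 59755 ± 37158 in female Ptk6-/- mice. Apart from the male controls, groups overlapped broadly. Within females the Defa24 group sum was 16363 ± 8004 CPM in wild type controls and 29671 ± 25002 after succinate, and 11560 ± 7103 and 32153 ± 25782 in Ptk6-/- mice. The Defa20 group sum went from 27627 ± 14179 to 13711 ± 5690 CPM in wild type and from 20381 ± 12825 to 16277 ± 8730 CPM in Ptk6-/- females. In females the means of the 2 groups thus lay on opposite sides of their controls, with an SD as large as the difference or nearly so.

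**Figure D3:**
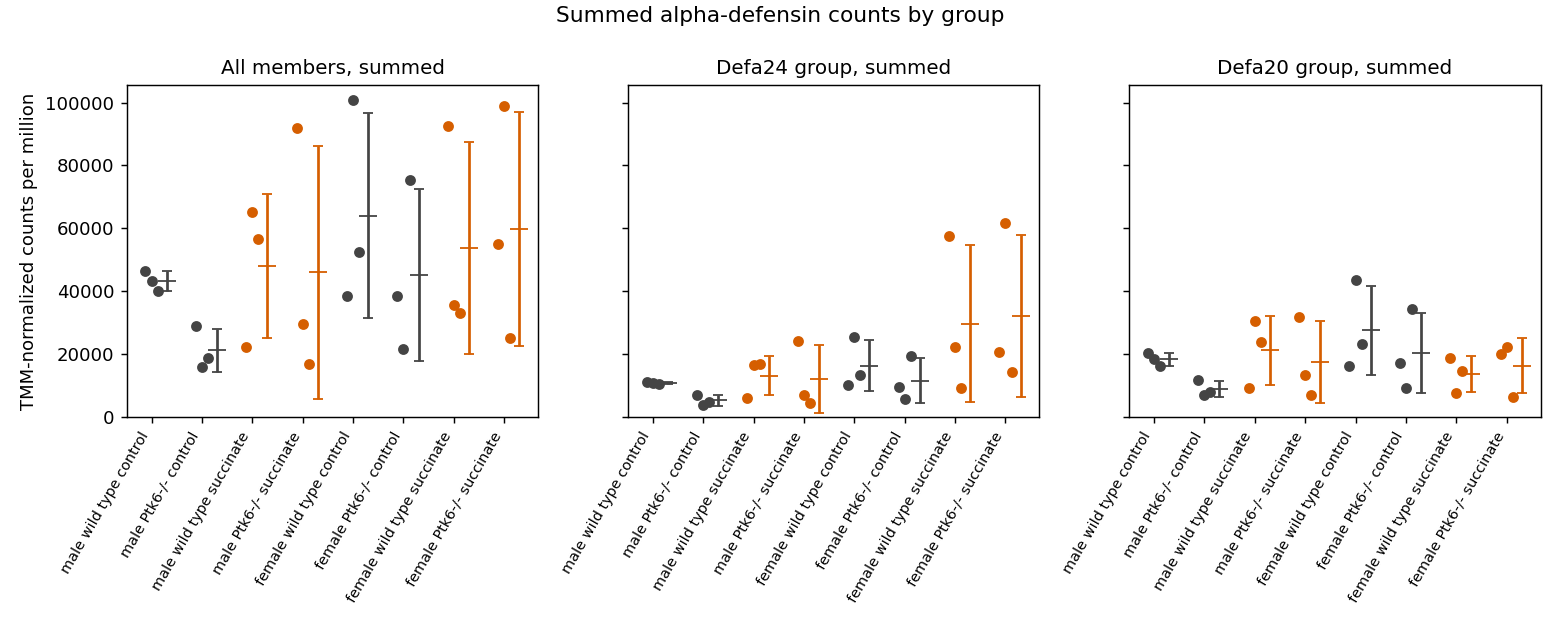
TMM-normalized CPM in each library, summed over all members (left), the Defa24 group (middle) and the Defa20 group (right), with the 3 libraries of each of the 8 groups as points and the mean and SD beside them. Succinate-treated groups are orange, and the family sum runs from 16021 to 100853.

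On the CPM scale, alpha-defensin levels were lower in untreated Ptk6-/- males than in wild type males. All 37 members tested had a lower level in Ptk6-/- than in wild type control males, and their median log2 fold change was -1.05 beside 0.02 over all 19218 genes tested. The family sum was 46367, 43348 and 40040 CPM in wild type males 1 to 3 and 28868, 16021 and 18685 CPM in Ptk6-/- males 1 to 3, without overlap, and its log2 fold change was -1.05 ± 0.37 (SE). On the CPM scale, libraries of the 2 genotypes did not overlap, with Ptk6-/- lower, for 29 of the 37 members, against 14.9% of all genes tested. The separation depended on the scale. On the deposited FPKM scale the family sum was 38036, 81591 and 74021 in wild type and 59649, 30617 and 32903 in Ptk6-/- males, and 0 of the 37 members were without overlap, against 1.09% of all genes. As a percentage of all counts the family also overlapped, and again 0 members were without overlap. In both cases the low wild type value was that of control 1, the library rich in Rn18s-rs5, and without it 32 members did not overlap on FPKM and 31 as a percentage of all counts. With the counts of Rn18s-rs5 left out of the total, the family held 5.15%, 4.87% and 4.41% in wild type and 3.72%, 1.86% and 2.04% in Ptk6-/- males, and 27 members did not overlap. These other scales were chosen after the data had been seen. By edgeR's quasi-likelihood test with Benjamini-Hochberg adjustment, 6 members passed an adjusted p of 0.05 and a 2-fold change, all lower, against 0.224% of all genes called lower. Markers of other cells moved in the same comparison. The sum of the 7 enterocyte markers, all detected, did not overlap. It was 20173 to 20877 CPM in wild type and 10531 to 17061 CPM in Ptk6-/- control males. The single markers did not move together. Apoa1, at 10070 to 11372 and 4335 to 7948 CPM, and Fabp2, at 5102 to 5872 and 2567 to 4376 CPM, were lower. Sis, at 781 to 823 and 951 to 1602 CPM, and Lct, at 365 to 403 and 430 to 534 CPM, were higher. Alpi, Apoa4 and Fabp1 overlapped. Of the 7 goblet cell markers, Muc2, the main gel-forming mucin gene, was higher. It had 1447 to 2252 CPM in wild type and 4163 to 5124 CPM in Ptk6-/- males. Fcgbp was also higher without overlap, at 3027 to 3939 and 3993 to 5117 CPM. Tff3, Zg16, Agr2 and Spink4 were lower without overlap, Zg16 at 3550 to 3689 and 1981 to 2928 CPM, and Clca1 overlapped. The sum of all 7 overlapped, at 11870 to 12725 and 12571 to 15994 CPM. The part of these shifts in the lower defensin levels was not tested.

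The 6 members that fell belong to several sequence groups. Defa20 had 3769, 3426 and 3551 CPM in wild type and 2105, 1307 and 1440 in Ptk6-/- males, and its log2 fold change was -1.17 ± 0.25 (SE), at an edgeR adjusted p of 0.0417. Defa30 had 1273, 1346 and 1354 CPM in wild type and 797, 459 and 558 in Ptk6-/- males, and its log2 fold change was -1.15 ± 0.22, at an edgeR adjusted p of 0.0375. For both genes every Ptk6-/- male was below every wild type male on the CPM scale. On FPKM they overlapped, since wild type control 1, at 3081 FPKM for Defa20 and 1111 for Defa30, was below Ptk6-/- control 1, at 4337 and 1753. Defa23 (-1.01, edgeR adjusted p = 0.0437) and Defa26 (-1.16, 0.0481) of the Defa24 group and Defa34 (-1.03, 0.0388) and Defa35 (-1.12, 0.0452) of the Defa37 group also fell. The other abundant members had fold changes of similar size and missed the threshold narrowly: Defa24 was at -1.10 ± 0.27 (edgeR adjusted p = 0.0559), Defa17 at -1.06 ± 0.25 (0.0528), Defa31 at -1.03 ± 0.23 (0.0502) and Defa3 at -1.02 ± 0.26 (0.0586). Of the Defa20 group, Defa2, Defa33, Defa32, Defa22 and Defa21 ranged from -1.08 to -0.97. The decrease was thus nearly even over the sequence groups, with medians of -1.08 in the Defa24 group, -1.06 in the Defa20 group, -1.001 in the Defa37 group and -1.05 in the Defa42 group, and the make-up of the family differed between the genotypes by less than its spread.

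These calls depended on the processing. Limma voom called 30 members lower and DESeq2 23, but 0 were called when a length term was added, on the FPKM scale or when all 24 libraries shared 1 fit. Leaving out any of wild type controls 1, 2 and 3 or Ptk6-/- controls 2 and 3 also gave 0 calls, and leaving out Ptk6-/- control 1 gave 29. Alpha-defensin transcripts are short, and the libraries of the 2 genotypes differed in how counts went with length. Across genes, log2 CPM rose with log2 length with a slope of 0.562 ± 0.0368 in wild type and 0.679 ± 0.0201 in Ptk6-/- control males (SD, n = 3), and with the term the members' median was -0.62. In control males the family sum kept its direction under every alternative run, and leaving out each library in turn gave -1.34 to -0.88.

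In untreated females the difference had the same direction and was smaller than the spread. Of 38 members tested, 37 were lower in Ptk6-/- mice, with a median log2 fold change of -0.53 beside 0.04 over all 19035 genes. The family sum was 38574, 100853 and 52623 CPM in wild type and 38341, 21749 and 75218 CPM in Ptk6-/- females, with broad overlap and a log2 fold change of -0.48 ± 0.64, which was 0.02 without female wild type control 2. With edgeR 0 members were called, against 0.0105% of all genes called lower. At an unadjusted p under 0.05 there were 2, against 11.1% of all genes in either direction, and DESeq2 and limma voom each called 1. The difference of the genotype effect between the sexes was 0.57 ± 0.72 for the family sum, and 0 members were called for it by edgeR, DESeq2 or limma voom, against 0% of all genes, with 0 at an unadjusted p under 0.05, against 4.64% of all genes. An effect particular to males was therefore not shown. All 3 Ptk6-/- and 0 of the 3 wild type control females had lung markers above 0.342 CPM, so whatever set these apart and genotype cannot be told apart in this comparison.

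**Figure D4:**
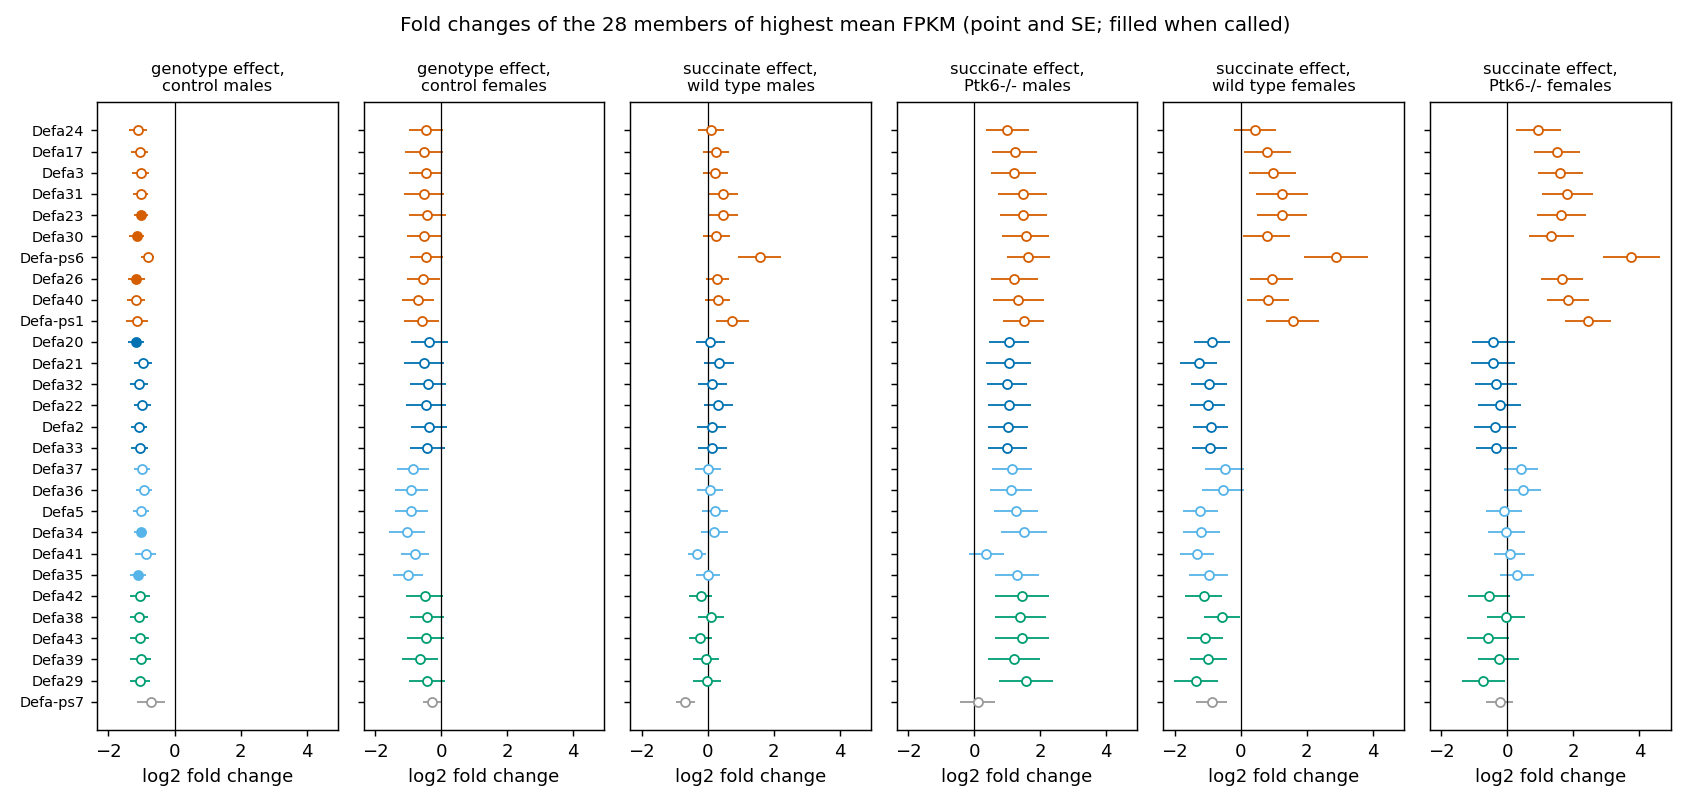
Log2 fold change with SE of the 28 members of highest mean FPKM in the 6 comparisons within 1 sex, coloured by sequence group, with points filled when called by edgeR at an adjusted p under 0.05 and a 2-fold change. The members lie near -1.05 in control males, and the Defa24 group lies to the right of the other groups in both female succinate comparisons.

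EdgeR called 0 members for succinate within any single sex and genotype, while other tools called up to 3. In wild type males edgeR called 0 of 37 members, as it called 0% of all genes. The members' median log2 fold change was 0.12 and the family sum changed by 0.14 ± 0.48, with 3 members at an unadjusted p under 0.05, against 4.07% of all genes. DESeq2 called 0 and limma voom 3, and edgeR called 3 without male wild type succinate 1. In Ptk6-/- males edgeR called 0 of 36 members, against 0% of all genes, with 3 at an unadjusted p under 0.05, against 7.75% of all genes, and neither DESeq2 nor limma voom called any. There the family sum was 1.21 ± 0.86 higher on the log2 scale, from 91874, 29475 and 16758 CPM after succinate against 28868, 16021 and 18685 CPM in controls. That value came from male Ptk6-/- succinate 1, the shallow library, and was 0.10 without it.

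In wild type females the Defa24 group and the other groups lay on opposite sides of 0. The medians were 0.94 for the 13 members of the Defa24 group, -0.94 for the Defa20 group, -1.08 for the Defa37 group and -1.08 for the Defa42 group, beside 0.03 over all 18872 genes tested. Defa31 had 1266, 3605 and 1762 CPM in controls and 10360, 3990 and 1220 CPM after succinate, a log2 fold change of 1.25 ± 0.79. Succinate-treated libraries 1 and 2 were above every control and library 3 was below, so the groups overlapped. Defa20 had 3073, 7911 and 4234 CPM in controls and 3796, 1430 and 2941 CPM after succinate, at -0.88 ± 0.55. Defa24 was at 0.43 ± 0.65, Defa17 at 0.80 ± 0.71 and Defa30 at 0.79 ± 0.71, and without female wild type succinate 1 these were at -0.43, -0.07 and -0.17. EdgeR called 0 of 37 members and 0% of all genes, with 3 members at an unadjusted p under 0.05, against 7.77% of all genes. DESeq2 called 1 and limma voom 0, and edgeR called 1 without female wild type succinate 3. Without female wild type succinate 2 the median over all members went from -0.88 to -0.50.

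In Ptk6-/- females all 13 members of the Defa24 group were higher after succinate, with a median of 1.66, while the Defa20 group was at -0.36, the Defa42 group at -0.55 and the Defa37 group at 0.18. Defa31 had 1147, 669 and 2771 CPM in controls and 3187, 11037 and 2249 CPM after succinate, at 1.82 ± 0.78 (edgeR adjusted p = 0.465). Defa3 was at 1.60 ± 0.68, Defa23 at 1.64 ± 0.75, Defa17 at 1.51 ± 0.70, Defa30 at 1.34 ± 0.68 and Defa24 at 0.95 ± 0.67, while Defa20 was at -0.42 ± 0.65 and at 0.20 without female Ptk6-/- control 3. Libraries did not overlap for 5 members, all higher after succinate, against 11.2% of all genes tested. EdgeR called 0 of 37, against 0.0879% of all genes called higher, with 11 members higher at an unadjusted p under 0.05, against 4.81% of all genes in that direction. DESeq2 called 2 and limma voom 1.

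The interactions of genotype and succinate called 0 members in either sex, against 0% of all genes, by edgeR, DESeq2 and limma voom. At an unadjusted p under 0.05 there were 1 in males, against 3.8% of all genes, and 3 in females, against 6.46%. For the family sum the interaction was 0.64 ± 0.99 in females. In males it was 1.06 ± 0.94, and -0.05 without male Ptk6-/- succinate 1.

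Over all 24 mice, with sex and genotype in the model, edgeR called 1 member, which rose after succinate. DESeq2 called 5 and limma voom 2, all higher. Without female wild type succinate 3 edgeR called 2 higher and 1 lower. The member called by edgeR was Defa-ps6, an unprocessed pseudogene, at a log2 fold change of 2.45 ± 0.49, which is 5.45-fold, at an edgeR adjusted p of 0.0223, against 0.424% of all genes called higher. It had 6.59 to 40.6 CPM in the 12 controls. After succinate it had 10.04, 28.9 and 83.8 CPM in male wild type and 48.8, 11.2 and 11.5 CPM in male Ptk6-/- mice, then 357, 195 and 15.4 CPM in female wild type and 89.0, 578 and 102 CPM in female Ptk6-/- mice. The high values were those of 5 of the 6 females and, to a lesser degree, wild type male 3 and Ptk6-/- male 1. Its transcript is 99.3% identical to that of Defa-ps1 and 93.6% identical to that of Defa31, so reads of those genes may be among its counts. The call was lost with limma on FPKM (adjusted p = 0.062), without the libraries that stand apart (0.0974) and without any of 6 single libraries, where edgeR's adjusted p was 0.0513 to 0.0666. The log2 fold change was 1.84 to 2.48 over the alternatives and 2.09 to 2.60 on leaving out each library.

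All 13 members of the Defa24 group were higher after succinate over the 24 mice, 10 of them at an unadjusted p under 0.05, against 8.56% of all genes in that direction. Their median was 1.01, beside -0.05 in the Defa20 group and 0.00 over all 21694 genes. The groups were formed after the values had been seen, and members of a group share reads. The count of members is therefore a description and not a test. Defa31 was at 1.23 ± 0.38 (edgeR adjusted p = 0.156), Defa23 at 1.19 ± 0.37 (0.154), Defa3 at 0.98 ± 0.34 (0.197), Defa30 at 0.97 ± 0.35 (0.215), Defa17 at 0.93 ± 0.34 (0.223) and Defa24 at 0.60 ± 0.31 (0.364). These mice are the same as in the comparisons above, so the values are not a further replicate. The sum of the Defa24 group was 0.95 ± 0.36 higher and that of the Defa20 group -0.04 ± 0.34.

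The level of the Defa24 group was higher in females than in males over the 24 mice, with female wild type succinate 2 counted as labelled. All 13 members were higher, each at an unadjusted p under 0.05, against 8.02% of all genes higher in females at that level. The group was formed after the values had been seen and its members share reads, so this count is not a test. The median was 1.25, beside 0.26 in the Defa20 group, and the lowest edgeR adjusted p among members was 0.097, so 0 members were called, against 0.0461% of all genes called higher. DESeq2 called 8 and limma voom 0, and edgeR called 2 without female wild type succinate 3. Because the succinate-treated females carry the highest values, a test of sex by succinate was added after the data had been seen. It called 0 of 39 members by edgeR, against 0% of all genes, with 5 at an unadjusted p under 0.05, against 7.35% of all genes, and a lowest adjusted p of 0.578. For that test the Defa24 group sum was at 0.44 ± 0.71 and the Defa20 group sum at -1.25 ± 0.62. A difference between the sexes in the response of single members was therefore not shown. For genotype over the 24 mice 38 of 39 members were lower in Ptk6-/- mice, the median was -0.38, and edgeR called 0, against 0.00461% of all genes called lower, with 4 lower at an unadjusted p under 0.05, against 7.02% of all genes. DESeq2 called 0 and limma voom 6.

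The other genes of the Paneth cell did not move as a block. Of a list of 26, 1 fell in control Ptk6-/- males: Clps, which encodes colipase, at -1.07 ± 0.19 (edgeR adjusted p = 0.0322). The list's median there was -0.13, and 15 of the 26 were lower. Ang4, an antimicrobial ribonuclease, was at -1.06 ± 0.37 and the lectin gene Itln1 at -1.03 ± 0.33, and their edgeR adjusted p values were 0.126 and 0.0987. Lyz1, which encodes lysozyme, was at -0.70 ± 0.48, and Mmp7, whose product cuts the defensin precursors, at -0.78 ± 0.35.

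Over all 24 mice 1 of the 26 rose after succinate. This was Mptx1, a mucosal pentraxin gene, at 3.82 ± 0.69 (edgeR adjusted p = 0.0102). It had 1.39 to 5.55 CPM in the 12 controls and 19.0 to 323 CPM in the 6 succinate-treated females, without overlap. In succinate-treated males it had 4.92, 17.9 and 42.2 CPM in wild type, so 2 of the 3 were above every control, and 4.11, 1.59 and 3.79 CPM in Ptk6-/- mice, within the control range. Ang4 was at 791 to 6545 CPM in those females and 130 to 655 CPM in controls, also without overlap, and at 493, 695 and 1520 CPM in wild type and 224, 203 and 243 CPM in Ptk6-/- succinate-treated males. Its log2 fold change over the 24 mice was 1.76 ± 0.42 and missed the threshold (edgeR adjusted p = 0.0556). Clps had 84.9 to 2014 CPM in the succinate-treated females and 29.0 to 201 CPM in controls. Lyz1 stayed in the control range in most of them, with 1632 to 7797 CPM against 2352 to 8547 CPM. Reg3g, an antibacterial lectin gene also expressed by enterocytes, was far lower in all 6, at 61.0 to 575 CPM against 1560 to 13560 CPM in controls, with a log2 fold change over the 24 mice of -2.07 ± 0.73 (edgeR adjusted p = 0.207).

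**Figure D5:**
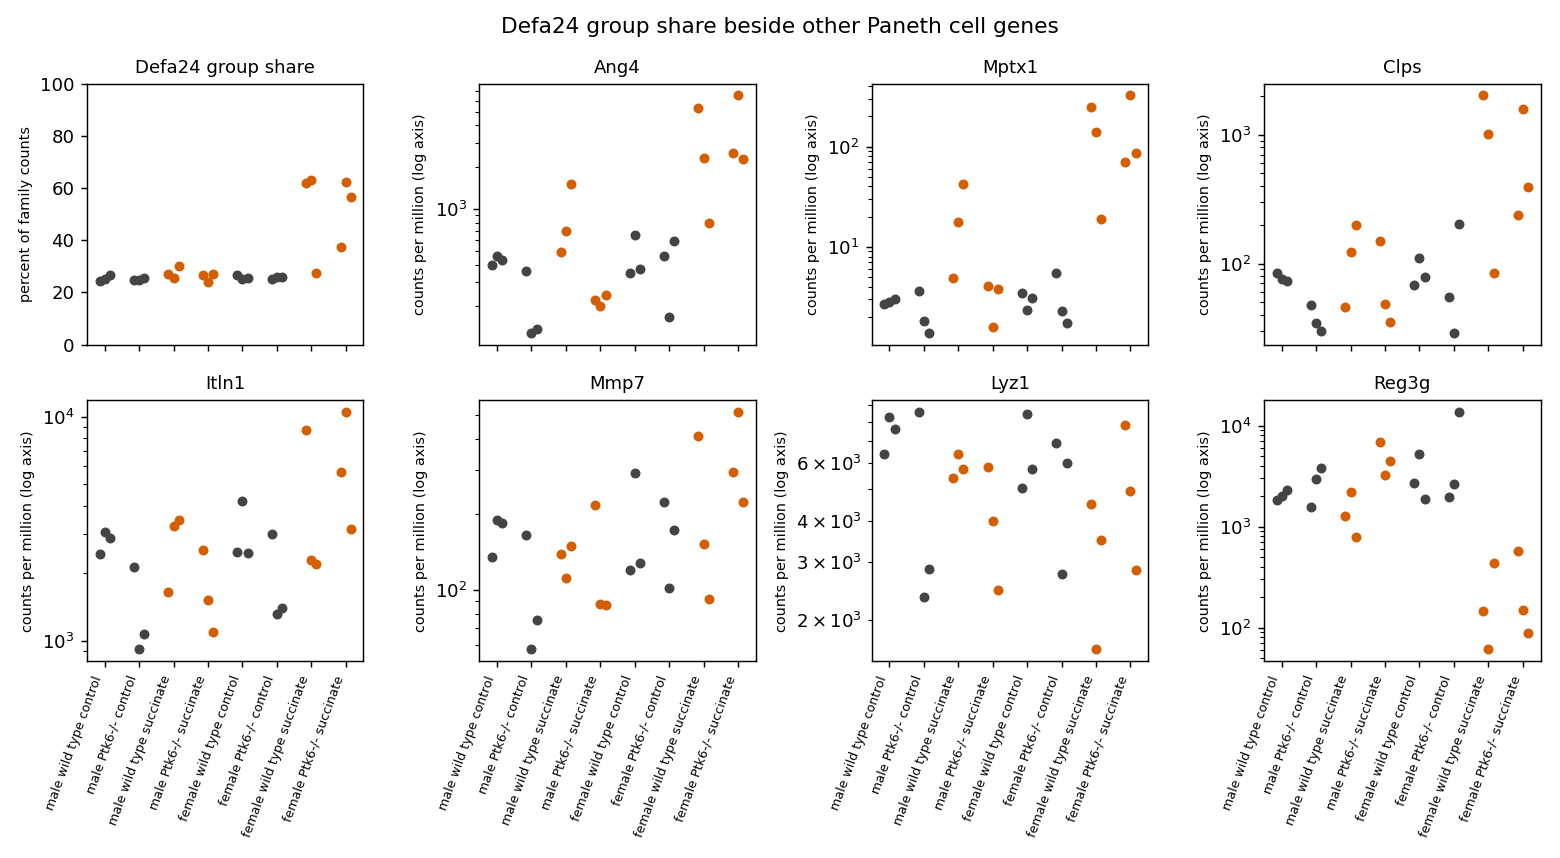
Share of the Defa24 group in the family counts (percent) and the CPM (log axes) of 7 other Paneth cell genes in each library, with succinate-treated groups in orange. In the 6 succinate-treated females Mptx1 and Ang4 are above all 12 controls and Reg3g is below them, while Lyz1 overlaps.

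Reg3b, the close relative of Reg3g, was at 89.3 to 986 CPM in the succinate-treated females and 2748 to 11110 CPM in controls, without overlap. Spdef, a transcription factor of secretory cells, was at 24.6 to 99.01 CPM in those females and 19.6 to 36.1 CPM in controls, and Cd24a, a surface marker used to sort Paneth cells, at 186 to 671 CPM and 94.2 to 187 CPM. Tuft cell markers, 6 of 6 detected, summed to 14.2 to 31.0 CPM in the 12 controls, 25.8 to 49.0 CPM in the succinate-treated males and 61.1 to 209 CPM in the succinate-treated females. The markers of the distal small intestine summed to 821 to 3260 CPM in controls and 321 to 1600 CPM in the succinate-treated females. In the succinate-treated males the distal sum was 872 to 9420 CPM. Female Ptk6-/- control 1, at a distal sum of 821 CPM, had a Defa24 group share of 25.1%, so this low sum came without the shift. The part of the tuft and distal sums in the make-up of the family was not tested.

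The 10 genes outside the family whose level over the 24 libraries was most like the family sum, among 10486 genes of at least 1 FPKM, were Mdk (Pearson's r = 0.919), Exosc2 (0.916), the ribosomal protein genes Rpl5, Rpl10a, Rpl3, Rpl6, Rpl12, Rps10-ps2 and Rps4x, and Nupr1 (0.897). Nupr1 is also on the Paneth list. Of the other genes on that list, Pla2g2a reached 0.80, Itln1 0.76 and Mmp7 0.74, and Lyz1 0.57. Others on it went the opposite way, among them Nod2 at -0.63, Fzd5 at -0.55, Atoh1 at -0.455, Gfi1 at -0.44, Xbp1 at -0.43 and Tcf7l2 at -0.42. The list as a whole thus did not follow the family sum.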

How the data were processed

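Poly(A) RNA from distal jejunum of 24 mice was sequenced from stranded mRNA libraries, 3 per group of sex, genotype and treatment. The authors trimmed reads with Cutadapt, aligned them with HISAT2 and assembled and quantified transcripts with StringTie, gffcompare and ballgown, with FastQC for quality. GRCm39 is named in the submitters' processing notes, and the program that counted reads per gene is not given in the sources used here. The deposited count table holds raw read counts per gene and library, and the authors' FPKM values are fragments scaled to transcript length and library size. How reads that match several copies were assigned is not stated, and nothing says that replicates share more than a number.

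From the counts, genes whose count reached 10 in 3 or more libraries of a comparison were tested with edgeR 4.0.16 (quasi-likelihood F test, TMM) in R 4.3.3, with Benjamini-Hochberg adjustment over all genes tested. A gene was called at an adjusted p under 0.05 and a fold change of at least 2. CPM was TMM-normalized. Sums over members were fitted beside the genes in a separate fit and got no p, and shares are percentages of the family's counts. Log2 values carried a prior of 0.5 CPM, and limma 3.58.1 on log2(FPKM + 1), limma voom and DESeq2 1.42.0 were alternatives. P-values measure the spread between these mice. Described singly were the 10 members of highest mean FPKM and every member called. The other genes described were a list of 26 Paneth cell genes and marker lists. Members and lists were chosen with earlier results of these data known, and the sequence groups and the sex by succinate test after the values had been seen. In data simulated for the control male comparison with 19218 genes, 66.7% of changes of 1.5 log2 units and 91.8% of those of 3 were recovered. For Ptk6-/- females with 19334 genes these were 11.1% and 72.4%. Genes set without a change were also called, 16 in the control male simulation and 6 in that of Ptk6-/- females. Sequences came from GENCODE M21 and, for 16 members, RefSeq promoters.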

Additional observations from a re-analysis of the deposited data

How the results depend on the processing

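The family sums kept their values within the spread between replicates (0.826 log2 units) under 144 of 151 alternatives other than leaving out a library, and the exceptions were all in succinate-treated Ptk6-/- males. The succinate effect on the sum there was 0.10 with limma on FPKM and 0.095 without the libraries that stand apart. The interaction in males was 0.19 with the length offset, 0.12 with the replicate block and the length offset together, 0.080 with voom, -0.29 with limma on FPKM and -0.11 without the libraries that stand apart. Leaving out each library in turn gave 0.095 to 1.63 for the first of these and -0.049 to 1.47 for the second, both lowest without male Ptk6-/- succinate 1. Of the comparisons, those whose family sum changed sign on leaving out 1 library were genotype in control females (-1.04 to 0.023), succinate in wild type males (-0.15 to 0.45), in wild type females (-0.89 to 0.27) and in Ptk6-/- females (-0.20 to 0.96), and the male interaction. The calls in control males were 23 with DESeq2, 30 with voom, and 0 with the replicate block, the length offset, both together, limma on FPKM, all 24 libraries in 1 fit and the libraries that stand apart left out, and 0 to 29 on leaving out each library. Genotype in control females had 1 call with DESeq2 and 1 with voom. Succinate had 3 calls with voom in wild type males, 1 with DESeq2 in wild type females, and 2 with DESeq2 and 1 with voom in Ptk6-/- females, with 0 to 3, 0 to 1 and 0 calls on leaving out each library. Over all 24 mice genotype had 6 calls with voom. Sex had 8 with DESeq2 and 1 with the length offset, and 0 to 2 on leaving out each library. Succinate over all 24 mice had 5 calls with DESeq2, 2 without the filter on low counts, 2 with voom, 0 with limma on FPKM and 0 without the libraries that stand apart, and 0 to 3 on leaving out each library, with 11 of 24 libraries changing the count. Defa-ps6 in that comparison ranged from an adjusted p of 3.38e-06 to 0.0974 over 9 alternatives and from 0.00665 to 0.0666 on leaving out each library. Among named members, the direction turned in wild type females for Defa24 (-0.43 to 0.83 on leaving out each library), Defa17 (-0.069 to 1.37) and Defa30 (-0.17 to 1.31), each lowest without female wild type succinate 1, and for Defa20 in Ptk6-/- females with voom (0.012) and without female Ptk6-/- control 3 (-0.76 to 0.20 on leaving out each library). The Defa24 group's share difference in females was 25.8 percentage points and stayed within 25.7 to 26.7 under other ways of computing it, all chosen after seeing the data, and within 23.5 to 30.6 on leaving out each library. Mice of different groups share only a replicate number: deviations of same-numbered mice correlated at -0.479 to 0.245, over 0.1 in 2 of 18 pairs. Apart from control males, the replicate block left the number of calls in each comparison as it was. DESeq2's scaling differed from TMM by -0.184 to 0.0569 log2 units. Every alternative named was run, and causes of these changes were not tested.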
